A study of Mus musculus with 6 samples.

Results

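mir-143 and mir-145a are neighbouring microRNA (miRNA) genes that are transcribed together in smooth muscle and other mesenchymal cells. They were described here in mouse bone cells and in the vesicles of mouse muscle cells. The members were the entries of the deposited table named mir-143, or mir-145 with or without the letter a, and 2 of the 1006 precursor entries met this rule. The table does not separate the 5p and 3p arms of a precursor. Small RNA was sequenced from 6 libraries: 1 of mouse primary osteoblasts (OB), 1 of mouse primary bone marrow cells (BM), 2 of Myo-EVs and 2 of FFSS-Myo-EVs. Myo-EVs are extracellular vesicles collected by ultracentrifugation from the medium of the mouse myoblast line C2C12. FFSS-Myo-EVs come from the same line after exposure to fluid flow shear stress (FFSS) on an orbital shaker for 48 hr. OB, BM and Myo-EVs carry the label of control for stress. The labels give all 6 libraries the same mixed background, with 18.75% of 129/SvJ and 81.25% of C57BL/6J, the C2C12 vesicles included, and they give OB and BM an age of 8-10 weeks, whereas the methods take osteoblasts from the calvariae of several neonatal male mice. For the osteoclast cultures, the methods take marrow from the tibiae of 1 male mouse aged 8 weeks. They do not name the donor of the sequenced marrow separately. The growth protocol in the labels also mentions vitamin D and dexamethasone, but no library is labelled with either. Nothing states that the 2 libraries of a vesicle group came from separate cultures, so that the spread between them may be technical. The p-values of the main edgeR fit rest on this spread as pooled over entries, and the spread of each member itself has no weight in them.

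As background, the primary transcript of the pair is cut into separate precursors, so that each mature miRNA can reach its own level. In smooth muscle, serum response factor and its partner myocardin drive the pair, which favours the contractile state of the cell. Both miRNAs are also abundant in fibroblasts and other cells of mesenchymal origin, whereas blood cells hold little of them.

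In the GRCm38 build, to which the mm10 name in the labels corresponds, the precursor gene Mir143 lies on chromosome 18 from 61649196 to 61649258 on the minus strand, and Mir145a lies from 61647825 to 61647894 on the same strand. They are 1301 bases apart, with Mir143 first in the direction of transcription. In GENCODE M21, Mir143 starts 366 bases beyond the end of the long noncoding gene Carmn, and the longer RefSeq model of Carmn, from 61645878 to 61665538, spans both precursors. A further entry, mir-145b, comes from a separate gene 7.37 Mb away and was not a member.

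The libraries held between 2414132 and 6092460 counts, and mir-21a was the most abundant entry in each, with 44.9% of the counts in BM and 20.2% to 23.3% in the others. The normalized expression value used below is the count multiplied by 1 constant per library, as the authors scaled it. The labelled cell types were checked against marker miRNAs. The summed value of 8 blood entries was 27034.7 in BM, 342 in OB and 171 to 263 in the vesicles. Among them, mir-223 was at 9710.3 in BM, 122 in OB and 0 to 7 in the vesicles. The sum of 5 mesenchymal entries was 291523 in OB, 8373 in BM and 41766 to 60558 in the vesicles. Of the skeletal muscle miRNAs, mir-206 was at 1969 to 2610.0 in the vesicles, 91.7 in OB and 7.9 in BM. In contrast, mir-1a and mir-133a were at 0 to 20.4 in the vesicles. The copies of mir-1a were highest in BM, at 30.6 and 31.4, against 2.8 and 6.1 in OB and 0 to 6 in the vesicles. This part of the list thus went the other way. The remaining entry, mir-133b, was at 45.2 and 35.9 in Myo-EVs, 13.9 and 12.2 in FFSS-Myo-EVs, 0.6 in OB and 0 in BM. The sum of 2 endothelial entries was 2514.5 in BM, 148.6 in OB and 22.8 to 100.6 in the vesicles.

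mir-143 was among the most abundant miRNAs in osteoblasts and in myoblast vesicles, and was far lower in bone marrow than in either. Its normalized expression value was 269506 in OB, 15620.4 in BM, 274482 and 372549 for Myo-EVs, with 312517 and 326655 for FFSS-Myo-EVs. It ranked 2 in OB, 3 in each of the 4 vesicle libraries and 24 in BM. In terms of the counts of a library, mir-143 took 9.42% in OB (95% exact Clopper-Pearson interval 9.39 to 9.44), 0.6455% in BM (0.639 to 0.652) and 9.52% to 12.9% in the vesicles. These intervals cover counting error only, and no source used here says that molecular identifiers were counted in place of amplified reads. The BM library thus stood apart from the other 5, and the OB library lay just below the lowest vesicle library.

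mir-145a followed the same order at a lower level. Its value was 16583.5 in OB, 894 in BM, 25113 and 25047 for Myo-EVs, with 21559 and 24787 for FFSS-Myo-EVs. It ranked 30 in OB, 107 in BM and 16 to 19 in the vesicles. Its share of the counts was 0.580% in OB (0.573 to 0.586), 0.0369% in BM (0.0354 to 0.0385) and 0.714% to 0.871% in the vesicles. All 4 vesicle libraries were above OB, and all were far above BM. Together the members made up 9.998% of the counts in OB, 0.682% in BM and 10.39% to 13.75% in the vesicles.

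**Figure D1:**
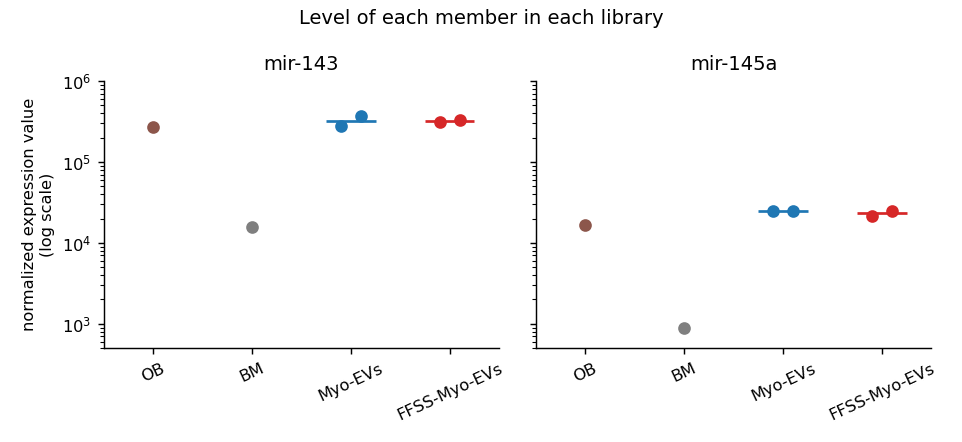
Normalized expression value (log scale) of mir-143 and mir-145a in each library. Points are libraries and horizontal lines are means of 2 libraries. For both members BM was lowest, at 15620.4 and 894, and the OB and vesicle libraries lay close together.

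Between the bone cells, both members were higher in OB than in BM. The ratio of OB to BM was 17.3 for mir-143 and 18.6 for mir-145a. Each cell type had 1 library, so that the difference has no replicate check and was not tested. A value at least 2-fold higher in OB than in BM was found for 34.7% of the 406 entries with a mean of at least 10 in these libraries, and both members were among them. Of 338 entries with a mean of at least 10 and over 3 counts in both libraries, 21 had a higher ratio than mir-143 and 20 had a higher ratio than mir-145a, and the median ratio was 0.780. These are bulk samples, in which fewer cells of a type and less RNA per cell cannot be told apart. The mesenchymal entries moved in the same direction, since their sum in BM was 2.87% of that in OB, compared to 5.80% for mir-143 and 5.39% for mir-145a. All 5 of them were at least 2-fold higher in OB, and all 8 blood entries were at least 2-fold higher in BM, which held for 29.3% of the 406 entries. The part of the cell mixture in the result was not tested.

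The vesicles were likewise above BM for both members. All vesicle libraries came from C2C12, and no library of C2C12 cells was among those analysed. In each comparison of vesicles with OB or BM, vesicle against cell and muscle line against bone cells cannot be told apart. Mean mir-143 was 20.7 times BM in Myo-EVs and 20.5 times BM in FFSS-Myo-EVs. For mir-145a the ratios were 28.1 and 25.9. All 4 vesicle libraries were at least 2-fold above BM in 34.9% of 398 entries, both members included. In Myo-EVs, 31 of 343 entries had a higher ratio to BM than mir-143, and 27 had a higher ratio than mir-145a.

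Compared to OB, the members differed little in the vesicles. The ratio of Myo-EVs to OB was 1.2 for mir-143 and 1.51 for mir-145a, and the ratio of FFSS-Myo-EVs to OB was 1.19 and 1.40. Every vesicle library was above OB for both members, which held for 44.0% of 427 entries and is therefore close to the background. For mir-143, the log2 ratio of Myo-EVs to OB was 0.26 and thus smaller than the SD of 0.31 between the Myo-EV libraries. The log2 ratio of FFSS-Myo-EVs to OB was 0.25, with an SD of 0.045 between the FFSS-Myo-EV libraries and no replicate of OB, and FFSS-Myo-EVs and Myo-EVs overlapped. With median-of-ratios size factors over the 6 libraries the direction turned, to -0.032 for Myo-EVs and -0.15 for FFSS-Myo-EVs. For mir-145a the log2 ratios to OB were 0.60 and 0.48, and they were 0.30 and 0.081 with these size factors. The order of mir-145a from low to high was BM, OB, FFSS-Myo-EVs and Myo-EVs, of which the last pair is compared next.

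The comparison of FFSS-Myo-EVs with Myo-EVs asks whether shear stress on the myoblasts alters the content of their vesicles. Neither member passed the test. mir-143 had a mean of 323516 ± 69344 (SD, n = 2) in Myo-EVs and 319586 ± 9997 (SD, n = 2) in FFSS-Myo-EVs, and both FFSS-Myo-EV libraries lay between the Myo-EV libraries. In edgeR's quasi-likelihood test with TMM factors, run on the 354 entries whose mean in the vesicles was at least 10, the log2 fold change of mir-143 was -0.13 (standard error 0.26, 95% interval -0.65 to 0.38, adjusted p = 0.768). For mir-145a the mean was 25079.9 ± 46.5 (SD, n = 2) in Myo-EVs and 23173 ± 2283 (SD, n = 2) in FFSS-Myo-EVs, and the log2 change was -0.24 (standard error 0.16, 95% interval -0.56 to 0.08, adjusted p = 0.290 in the same edgeR test). With FFSS, 12.1% of the entries tested were called higher and 18.4% lower (adjusted p under 0.05, edgeR), and 0 of the 2 members were among them. These are 43 and 65 entries, and with the authors' scaling in place of TMM they were 54 and 39. At an unadjusted p, mir-143 was at 0.608 and mir-145a at 0.140 in edgeR, and DESeq2 gave adjusted values of 0.665 and 0.218.

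For mir-145a the FFSS-Myo-EV libraries both lay below the Myo-EV libraries with the authors' scaling, which held for 23.7% of the entries tested. They did so by little, with 24787 in the second FFSS-Myo-EV library against 25047 in the second Myo-EV library. In CPM, the count per library scaled to a common total with TMM, the values were 9306 and 8563 for Myo-EVs, with 7298 and 7812 for FFSS-Myo-EVs. The groups did not overlap there either, but the share of all entries with this position was not counted on that scale. The median log2 change of all entries tested was -0.025 with TMM and 0.094 with the authors' scaling, under which the changes of the members were -0.018 and -0.11.

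**Figure D2:**
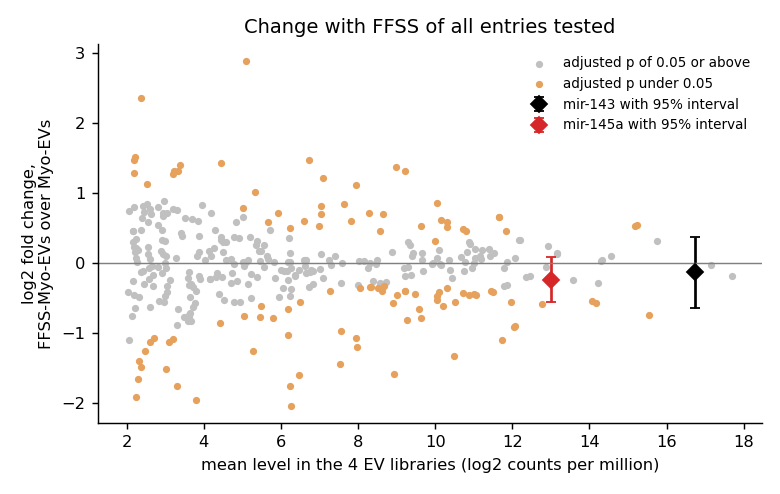
Log2 fold change of FFSS-Myo-EVs over Myo-EVs against the mean level in the 4 vesicle libraries (log2 CPM) for 354 entries. Diamonds mark the members with their 95% intervals, both of which include 0; orange points have an adjusted p under 0.05 in edgeR.

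The result for mir-143 depended on the Myo-EV libraries. The second was 1.36 times the first for mir-143, and only 21 of 202 entries with a mean of at least 100 in Myo-EVs (10.4%) differed more between these libraries. mir-145a differed by a factor of 0.997 between the same libraries, and 200 of the 202 entries differed more. When the first Myo-EV library was left out, mir-143 changed by -0.35 on the log2 scale, and without the second it changed by 0.12. Each of these fits leaves 1 Myo-EV library, so that only the sizes of the changes are given. Between the FFSS-Myo-EV libraries the factors were 1.05 for mir-143 and 1.15 for mir-145a.

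The ratio of the members within a library does not depend on the scaling. mir-143 exceeded mir-145a in every library. The counts of mir-143 per count of mir-145a were 16.3 in OB (95% exact interval 16.1 to 16.4), 17.5 in BM (16.8 to 18.2), 10.9 and 14.9 for Myo-EVs, with 14.5 and 13.2 for FFSS-Myo-EVs. The ratio was thus highest in the cells and lowest in the first Myo-EV library, and the 4 vesicle libraries were below both cell libraries. The vesicles and the cells also differ in cell type, so that this is not a contrast of vesicles with their own cells. OB and BM, which differed widely in the level of each member, differed little in this ratio, by -0.105 on the log2 scale (OB minus BM). A ratio of read counts of different sequences is compared here between libraries and is not a ratio of molecules.

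**Figure D3:**
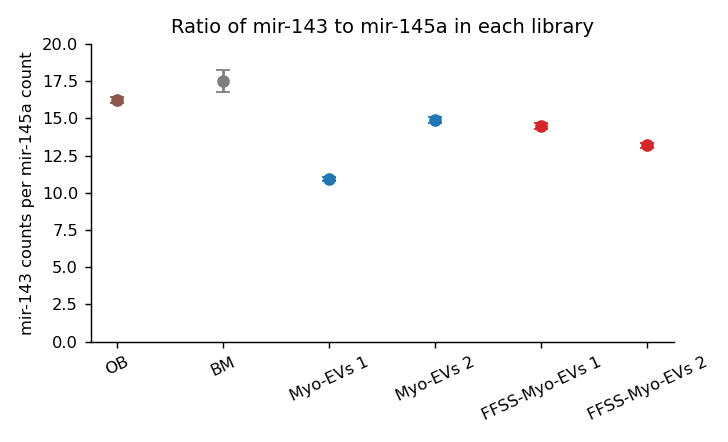
Counts of mir-143 per count of mir-145a in each library, with exact 95% counting intervals. The cell libraries were at 16.3 and 17.5, and the vesicle libraries ranged from 10.9 to 14.9.

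The ratio did not separate the vesicle groups. Its mean was 12.9 ± 2.79 (SD, n = 2) in Myo-EVs and 13.8 ± 0.932 (SD, n = 2) in FFSS-Myo-EVs, a difference of 0.12 on the log2 scale. The two-sided exact permutation test gave p = 1.0, and with 2 libraries against 2 it cannot give less than 0.333. In 1 model of both members, the change of the ratio was 0.12 with a standard error of 0.21 (edgeR interaction term at the common dispersion).

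To place this ratio, 27 pairs of miRNAs from shared genomic clusters were listed, and 18 of them had at least 100 counts of each member in every library. Of the 18, 17 had both positions in GENCODE M21, on the same strand and 66 to 5444 bases apart. Some pairs have another miRNA between them, such as mir-106b and mir-25. Between the lowest and the highest of the 6 libraries, the ratio of mir-143 to mir-145a ranged over 0.68 on the log2 scale, a factor of 1.60, and ranked 4 of 18 from the narrowest. The narrowest range was that of mir-23b and mir-27b, at 0.17, and the widest was that of mir-99a and let-7c-1, at 4.65, and the median was 1.39. The vesicles lay on one side of both cell libraries in 12 of the 18 pairs, so that such a position was usual here. Some of these entries share mature sequences with copies elsewhere in the genome, and pairs share libraries, so that the ranks are a description.

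**Figure D4:**
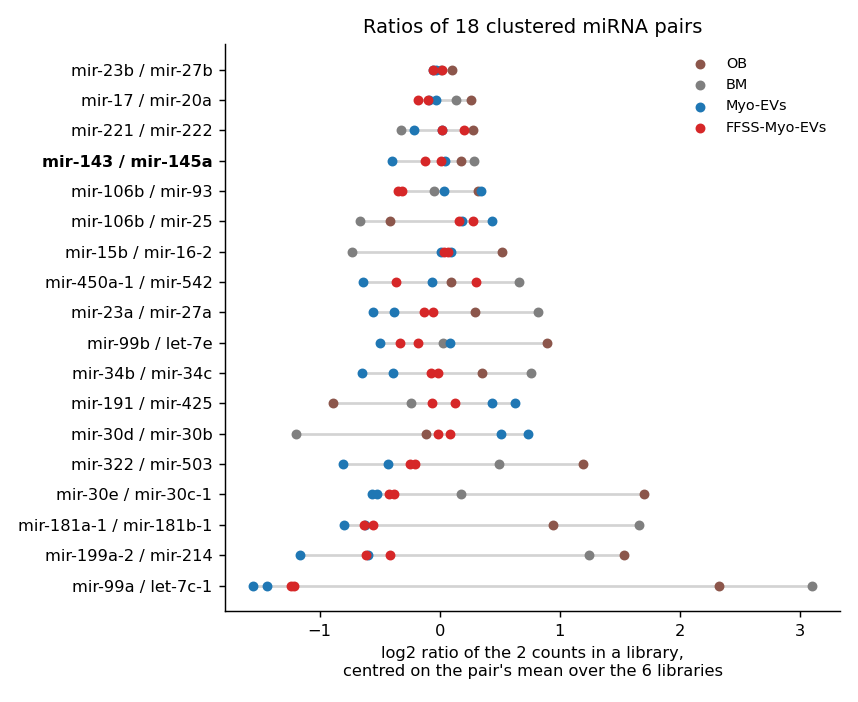
Log2 ratio of the counts of 18 clustered miRNA pairs, centred on each pair's mean over the 6 libraries. Points are libraries, colours are conditions, and pairs are ordered by range; mir-143 with mir-145a spans 0.68, from the first Myo-EV library to BM.

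The entries most like the members over the 4 conditions were found from the root mean square difference of log2 condition means (value plus 1), after centring each entry on its own mean. Among 245 others with a mean of at least 100, the nearest to mir-143 was mir-145a at 0.18, followed by mir-193b at 0.30, mir-99b at 0.32, mir-214 at 0.38 and mir-351 at 0.48. The nearest to mir-145a was mir-99b at 0.17, followed by mir-143 at 0.18, mir-193b at 0.19, mir-214 at 0.42 and mir-96 at 0.47. The median distance to all others was 2.26 for mir-143 and 2.34 for mir-145a. In 4 of the 18 listed pairs at least 1 entry was the nearest profile of the other, and in 2 this held both ways. The conditions share vesicle and cell libraries, and the OB and BM points are 1 library each.

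These neighbours in profile spanned a wide range of levels. mir-99b, a relative of mir-100, was at 28926 in OB, 1863 in BM, 52743 and 65287 for Myo-EVs, with 52787 and 52207 for FFSS-Myo-EVs. mir-193b was at 149 in OB, 5.6 in BM, 171 and 230.0 for Myo-EVs, with 226 and 254 for FFSS-Myo-EVs. mir-214, which is transcribed with mir-199a-2 in mesenchymal cells, was at 8033 in OB, 226 in BM, 4522 and 7088 for Myo-EVs, with 5729 and 6238 for FFSS-Myo-EVs. In each of the 3, BM was lowest by a wide margin, as for the members, which follows from their choice by profile. Their log2 changes with FFSS were -0.29 for mir-99b, 0.14 for mir-193b and -0.069 for mir-214, and none was called (adjusted p = 0.269, 0.670 and 0.768 in edgeR). mir-351, in contrast, fell by 1.11 on the log2 scale (adjusted p = 2.58e-12 in the same edgeR test), from 12893 and 13087 to 6604 and 6524.

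**Figure D5:**
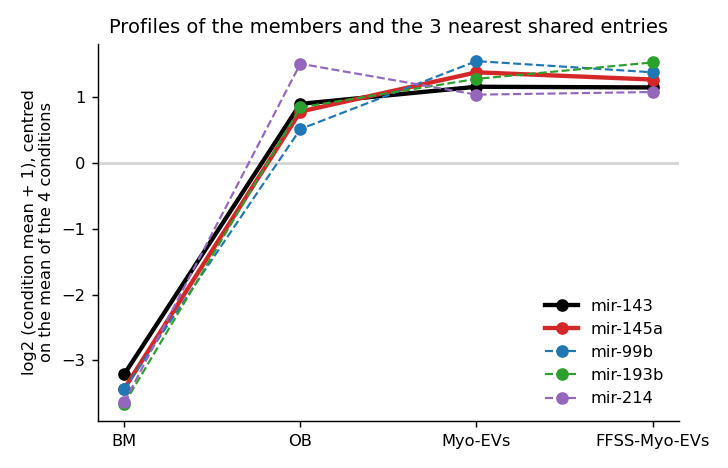
Centred log2 condition means of mir-143, mir-145a and the 3 entries near both of them. Each line is an entry. All 5 were lowest in BM, at -3.21 for mir-143 and -3.43 for mir-145a. The other 3 were chosen as near to the members in profile, so that a like shape follows from the choice.

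The mature sequences of the 3 entries near both members are shown so that entries alike in profile can be compared by their seed, the stretch of bases 2 to 8 that leads the pairing with targets. The RefSeq sequences used here (GRCm38.p6) matched 5 of the 5 nearest entries and 0 of the 2 members. The seed is in capitals, and the 10 mature sequences of the 5 entries had 10 distinct seeds.
miR-99b-5p: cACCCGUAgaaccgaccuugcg
miR-99b-3p: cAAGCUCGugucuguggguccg
miR-193b-5p: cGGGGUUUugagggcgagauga
miR-193b-3p: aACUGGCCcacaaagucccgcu
miR-214-5p: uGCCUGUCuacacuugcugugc
miR-214-3p: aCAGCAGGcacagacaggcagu
Mir99b lies on chromosome 17 from 17830188 to 17830257, Mir193b on chromosome 16 from 13449523 to 13449601, and Mir214 on chromosome 1 from 162223368 to 162223477, all on the plus strand. None of them is thus a genomic neighbour of the members.

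A list of 23 entries of other miRNAs known to act on the smooth muscle phenotype was assembled, of which 20 were tested in the vesicles. With FFSS 3 rose, 5 fell and 12 did not pass the test, against 12.1% higher and 18.4% lower of all entries tested, and the median log2 change was -0.10, beside -0.025 over all entries. mir-221, which promotes the growth of smooth muscle cells, and both copies of mir-26a rose, with 0.66 for mir-26a-1 (adjusted p = 5.7e-05 in edgeR). Both copies of mir-24, both copies of mir-133a, and mir-133b fell, with -1.92 for mir-133a-2, which had values of 17.1 and 20.4 for Myo-EVs, with 6 and 4.4 for FFSS-Myo-EVs. Copies of a miRNA share reads, so that they are not independent. Between the cells, 6 of 20 entries of the list were at least 2-fold higher in OB and 5 at least 2-fold higher in BM, against 34.7% and 29.3% of all 406 entries, with a median log2 ratio of OB to BM of -0.38 beside -0.21 over all of them. mir-31 was the entry of the list with the largest ratio of OB to BM, 86.8, and mir-21a, the most abundant, had a ratio of 0.569.

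The marker lists are short, and their calls in the vesicles stand against the same 12.1% higher and 18.4% lower of all entries. Of the 5 mesenchymal entries, mir-199b rose by 0.46 on the log2 scale (adjusted p = 0.00845 in edgeR), and the median of the list was 0.33. Of 4 skeletal muscle entries tested, 3 fell, the copies of mir-133a and mir-133b named above, and mir-206 had a change of 0.15 (adjusted p = 0.420). Of 3 blood entries tested, mir-451a rose, from values of 3 and 4.8 to 25.9 and 17.7, and the median was 0.045. The endothelial entry mir-126a rose as well, from 39.1 and 22.8 to 100.6 and 84.2. The part of these markers in the changes of the members, neither of which passed the test, was not tested.

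The entry mir-145b was low in every library. It had 9 counts in OB, 1 in BM, 40 and 26 for Myo-EVs, with 32 and 28 for FFSS-Myo-EVs. The vesicles were thus at 31 to 40.2 on the normalized scale, and OB at 5. Its log2 change with FFSS was -0.32 (standard error 0.37, adjusted p = 0.599 in edgeR). The number of mismatches allowed in matching reads is not given in the sources used here. Whether reads of mir-145a were counted under mir-145b was not tested.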

How the data were processed

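Small RNA libraries of OB, BM, Myo-EVs and FFSS-Myo-EVs were analysed from 1 table of 1006 miRBase precursor entries. In CLC Genomics Workbench the authors collapsed identical reads and annotated them with miRBase, and they deposited whole-number counts without normalization. The normalized expression value is a second deposited column per library, a scaled signal equal to the count times 1 constant per library (0.397 to 1.198). The build given with the labels is mm10. The miRBase release, the mismatches allowed and how multiply matching reads were assigned are not given in the sources used here.

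The members and lists were chosen with earlier results of these data known. Entries named are the members, the 5 nearest profiles of each, and the extremes of the pairs and of the lists (blood, endothelial, mesenchymal, skeletal muscle and smooth muscle phenotype). The called entries of small sets and mir-31 were named after their values were seen. FFSS-Myo-EVs and Myo-EVs were compared on the counts with edgeR 4.0.16 in R 4.3.3 (TMM factors, quasi-likelihood test, Benjamini-Hochberg adjustment over 354 entries whose mean in the vesicles was at least 10). Standard errors were taken from the F statistic. With 2 libraries a group, 2 residual degrees of freedom remain, and the test borrows information across entries. In the main fit the weight of the pooled spread (prior degrees of freedom) was estimated as infinite. The spread of each entry's own libraries thus had no weight in that fit. Its intervals and p-values do not include the uncertainty of a spread taken from 2 libraries a group. On simulated counts the test called, in the right direction, 178 of 192 entries changed 2-fold and 106 of 194 changed 1.5-fold. In these runs 7 and 3 unchanged entries were called, and 0 when none was changed. The simulated counts had 1 common dispersion of 0.0108 for all entries, so that these rates need not hold for the members. Alternatives used DESeq2 1.42.0, limma 3.58.1, other scalings and filters, the replicate block and each vesicle library left out in turn. Levels in OB and BM, with 1 library each, were not tested. Positions are from GENCODE M21 (GRCm38) and RefSeq (GRCm38.p6). Intervals, ratios and profiles were computed in Python 3.11.15 (scipy 1.17.1, pandas 2.3.3).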

Additional observations from a re-analysis of the deposited data

How the results depend on the processing

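The log2 fold change of mir-145a with FFSS was below 0 and not called in all 13 alternatives, from -0.29 without a filter to -0.11 with the authors' scaling (adjusted p from 0.0975 to 0.729). That of mir-143 was not called in 12 of 13 and below 0 in 12. It ranged from -0.35 without the first Myo-EV library to 0.12 without the second. The call came from the former fit, in which 1 Myo-EV library was left, and carries little weight. The change of the ratio of the members ranged from -0.11 without the first Myo-EV library to 0.34 without the second. Replicate numbers are shared between the vesicle groups, but no source pairs them, and the correlation of the replicate differences over 354 entries was 0.21. With the replicate block the changes were -0.13 for mir-143 and -0.24 for mir-145a, with 44 entries called higher and 66 lower. The 65 entries called lower became 39 with the authors' scaling and 37 with limma at either pseudocount. Leaving out each vesicle library gave 15 to 51 entries called higher and 18 to 75 called lower, with 15 and 25 without the first FFSS-Myo-EV library and 19 and 18 without the second.

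The scale moved the log2 ratios between cells and vesicles, and 2 of them changed sign. With shares of the library total, with these shares after leaving out mir-21a, and with median-of-ratios size factors, OB to BM was 3.87, 3.36 and 4.33 for mir-143 and 3.97, 3.46 and 4.44 for mir-145a. In the same order, FFSS-Myo-EVs to BM was 4.05, 3.53 and 4.18 for mir-143 and 4.40, 3.87 and 4.52 for mir-145a. Myo-EVs to BM was 3.62 for mir-143 without mir-21a, and 4.56, 4.06 and 4.74 for mir-145a. Myo-EVs to OB was 0.58, 0.59 and 0.30 for mir-145a and -0.032 with size factors for mir-143. FFSS-Myo-EVs to OB was 0.19, 0.17 and -0.15 for mir-143 and 0.081 with size factors for mir-145a. The cause of these shifts was not tested. One library each of OB and BM and 2 of each vesicle group limit what can be tested.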

Other observations

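The annotation gave a wider set of neighbours than the list. Among entries with at least 100 counts in every library, 34 adjacent pairs lay within 10 kb on the same strand. By the range of their log2 ratio over the 6 libraries, mir-143 and mir-145a ranked 6 of 34, and the median range was 1.44. The widest range, 4.98, was that of mir-100 and let-7a-2, whose ratio differed by 4.98 on the log2 scale between OB and BM, where that of the members differed by -0.105 (OB minus BM). In 22 of the 34 pairs the 4 vesicle libraries lay on one side of both cell libraries. In 2 pairs, mir-23b with mir-27b and mir-17 with mir-20a, each entry was the nearest profile of the other. For mir-143 and mir-145a this held in 1 direction, since mir-99b was nearer to mir-145a.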
